A study of Mus musculus with 20 samples.

Results

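Repeated social stress was compared with a single episode of it in the prefrontal cortex of mice. The measure was the log2 ratio of a pool of stressed mice over a pool of unstressed controls, and the comparison was the mean ratio of the 6 pairs of pools from 8 or 13 days of stress minus the mean ratio of the 3 pairs from acute stress. These are 9 of the 12 pairs of pools in the series and 15 of its 20 arrays. The members are all probes well above background, 28481 of 39429.

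The mice were males that were moved from cages shared with their brothers to individual cages before stress began. A stressed mouse was put as an intruder into a cage of group-housed Swiss Webster males. The acute group met them once. The 8 days and 13 days groups met them again, for shorter sessions that were repeated within each day. All were killed the day after the last encounter. Each time point had a control group of its own, made up of unstressed brothers kept in single cages in an adjacent room. The room was therefore part of every stress to control ratio, and the mice of the longer groups were older when killed than those of the acute group. Each pool held equal RNA from several mice, taken from a slice of the frontal pole that holds orbital, prelimbic and frontal association cortex. A ratio is thus an average over mice, and values of single mice are not analysed here.

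The prefrontal cortex takes part in the control of fear and of responses to threat. Its tissue holds neurons, the oligodendrocytes that wrap axons in myelin, astrocytes, blood vessels with the blood in them, and, at the brain surface, the meninges, which are sheets of fibroblasts and collagen. Hemoglobin is the oxygen carrier of red cells, and each molecule joins alpha and beta chains around heme. Of the markers of cortical neurons, 14 of 14 were measured well above background, as were 11 of 13 markers of the olfactory bulb, which lies beside the frontal pole.

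Sequences of 2 kinds are shown for the genes that carry the results. The first are array probes, each a 60-base copy of the transcript that it detects. They are shown for alpha and beta hemoglobin and for the 2 transcripts that passed the test, immunoglobulin heavy constant mu and Mobp. For Mobp the probe printed is a second one, at chr9:120077006-120077065, since the probe that passed is named only.
Hba-a1 (mm9, chr11:32183955-32184014, plus strand): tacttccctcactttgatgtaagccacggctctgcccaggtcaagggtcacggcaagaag
Hbb-b2 (no position in the array tables): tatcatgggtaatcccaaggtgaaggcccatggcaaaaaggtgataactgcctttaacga
Immunoglobulin heavy constant mu (mm9, chr12:114659630-114659689, minus strand): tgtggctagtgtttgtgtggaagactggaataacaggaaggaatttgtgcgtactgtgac
Mobp (mm9, second probe, plus strand): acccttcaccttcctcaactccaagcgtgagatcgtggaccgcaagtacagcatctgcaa

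The second kind are the 120 bases before the transcription start of hemoglobin genes and of Alas2, whose ratios kept the same order over time, as RefSeq gives them for GRCm38.p6. Capitals mark letters searched on both strands. One motif is CACCC, read as GGGTG on the other strand. Another is CCAAT, which becomes ATTGG when the strand is turned. A TATA-like motif was searched as ATATAA. The binding motif of GATA factors was searched as AGATAA, which the other strand shows as TTATCT. The array's names Hbb-b1 and Beta-s stand for the genes that RefSeq now calls Hbb-bt and Hbb-bs.
Hba-a1 (chr11:32283552-32283671, plus strand): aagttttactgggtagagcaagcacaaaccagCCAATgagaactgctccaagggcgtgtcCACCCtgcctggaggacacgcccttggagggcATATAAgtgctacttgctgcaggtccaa
Hbb-bt (chr7:103813924-103814043, minus strand): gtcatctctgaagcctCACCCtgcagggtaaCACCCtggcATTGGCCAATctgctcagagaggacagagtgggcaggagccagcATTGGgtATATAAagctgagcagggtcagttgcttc
Hbb-bs (chr7:103827929-103828048, minus strand): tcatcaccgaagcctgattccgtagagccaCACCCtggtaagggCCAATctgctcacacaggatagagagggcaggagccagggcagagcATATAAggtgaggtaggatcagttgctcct
Alas2 (chrX:150547297-150547416, plus strand): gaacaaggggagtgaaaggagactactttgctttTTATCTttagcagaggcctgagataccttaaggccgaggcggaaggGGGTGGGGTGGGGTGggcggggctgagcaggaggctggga
The 3 globin windows each held the CACCC, the CCAAT and the TATA-like motif, a set found in 0.286% of 32851 mouse promoter windows of this length. The first of these alone was found in 31.7% of windows, the second in 21.3% and the TATA-like one in 4.47%. In the Hbb-bt window 2 matches of the CCAAT motif touch, on opposite strands. The Alas2 window held the CACCC motif 3 times on its other strand and the GATA motif once, which 4.36% of windows hold, and neither of the other motifs. These matches describe the sequence and were not tested against the arrays.

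On an array, 71.4% to 74.9% of spots were well above background in either channel, and 0 were saturated. All 4 time points were present once on each of the 5 slides. Stress was in Cy5 on the single array of pool 1 at each time point, while pools 2 and 3 were hybridised again with the dyes exchanged. Over all probes, the original array and the turned swap of a pool had r of -0.382 to -0.094 at the 4 time points, so probes deviated with the dye more than with stress. The single arrays of pool 1 hold that dye effect at every time point. The slides fall into 3 sets, since each slide held arrays of only 1 pool number. Acute pool 1 stood apart for some transcripts, with log2 ratios of -2.12 for Ltf, -2.06 for Col1a1, -1.13 for Egr2 and -1.09 for Slc4a1. Results that rest on it are given with and without it.

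Repeated stress was set against acute stress for every tested probe. Among the named genes with the lowest p, those with higher ratios after repeated stress included hemoglobin and matrix genes, and those with lower ratios included genes of oligodendrocytes and astrocytes. In limma, with a Benjamini-Hochberg adjusted p under 0.05 and a difference over 0.5 on the log2 scale, 0 probes (0%) were higher after repeated stress and 2 probes (0.00702%) were lower. The 2 that fell were Mobp, a protein of compact myelin, and the constant part of the immunoglobulin M heavy chain. At an unadjusted p under 0.05 there were 636 higher (2.23%) and 763 lower probes (2.68%). The lowest repeated pool lay above the highest acute pool for 372 probes (1.31%), and the reverse held for 456 probes (1.6%). By size alone, 44 probes (0.154%) were higher by over 0.5 and 9 (0.0316%) were lower. Of these, 11 of the 44 and 3 of the 9 had no overlap. Without acute pool 1 there were 21 higher and 13 lower probes over 0.5, a split chosen after the data had been seen. The median difference of all tested probes was -0.0050, with 13361 positive and 15120 negative.

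When the slide was taken as a block and arrays of 1 pool as a random block, 10 probes were higher and 3 lower by both criteria. The 10 were Hba-a1, Hba-a2, Hbb-b1, Hbb-b2, Beta-s, Alas2, Mgp, 1500015O10Rik, Col1a2 and Fabp7, and the 3 were Mobp, immunoglobulin heavy constant mu and Agxt2l1. Slides differ by pool number, so the same block can be fitted on the pool averages, with the pool number as its term. In that fit Hba-a1 (adjusted p 0.087), Hba-a2 (0.110), Col1a2 (0.148) and Agxt2l1 (0.131) did not pass, and neither did Pcolce, Ogn, Trf, Rprm, Tmem125 and Plcd4, at 0.065 to 0.116. Fabp7 passed by its p (0.014) and not by its size there. By the adjusted p alone, 38 probes were higher (0.133%) and 34 lower (0.119%) in the fit on arrays with the slide as a block. The fit on arrays counted the 2 arrays of a pool as nearly independent, with a correlation of -0.0048. The values with the slide as a block and those within each set of slides are given beside the genes below.

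**Figure D1:**
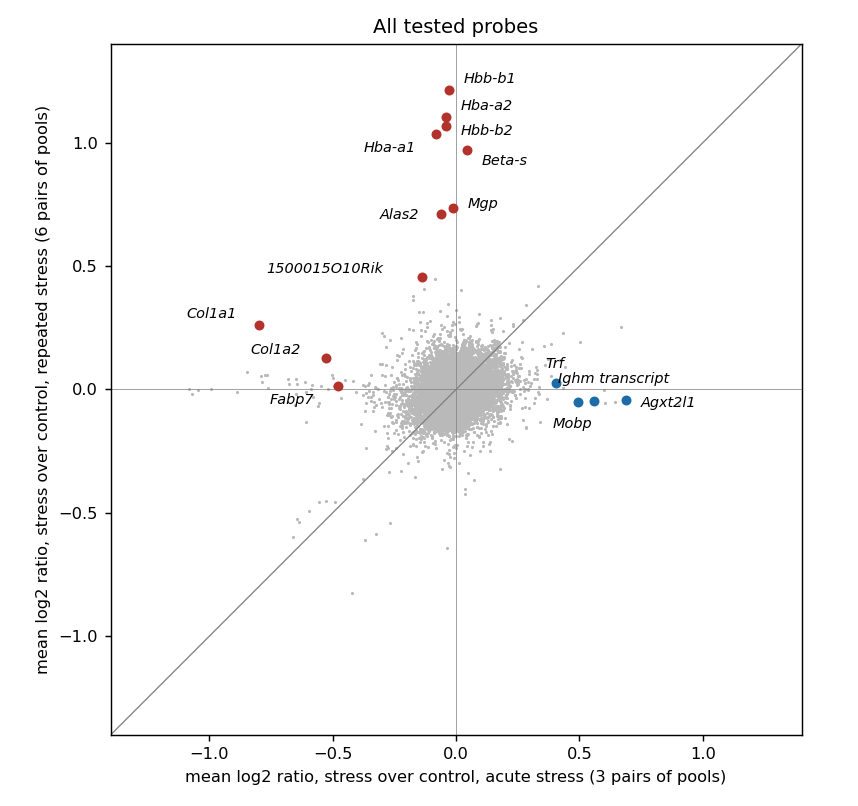
Mean log2 ratio of stress over control after acute stress (x axis, 3 pools) against the mean of 8 and 13 days of stress (y axis, 6 pools), 1 point for each of 28481 probes, with the line of equal ratios. The hemoglobin genes lie at 0.97 to 1.21 on the y axis and between -0.08 and 0.04 on the x axis, and Mobp and the immunoglobulin transcript at 0.49 and 0.56 on the x axis and near 0 on the y axis.

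Hemoglobin genes had the highest ratios after repeated stress, near 2 times those of controls, and ratios near 1 after acute stress. The study named these genes, Alas2 and 1500015O10Rik on the same arrays, so their direction and order here are no independent evidence. Hbb-b1, a beta chain (mm9, chr7:110961105-110961164), had log2 ratios of -0.34, 0.20 and 0.05 in the acute pools, 0.72, 1.08 and 0.65 after 8 days, and 1.46, 1.91 and 1.45 after 13 days. The lowest repeated pool was thus well above the highest acute pool, and the 13 days pools were all above the 8 days pools. The difference of repeated minus acute was 1.24 on the log2 scale (SE 0.23, 95% interval 0.74 to 1.74), or 2.36-fold, with an adjusted p of 0.180 in limma and of 0.0025 with the slide as a block. Within the 3 sets of slides it was 1.43, 1.29 and 1.00.

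Hba-a1, an alpha chain (mm9, chr11:32183955-32184014), had -0.26, -0.02 and 0.04 in the acute pools, 0.60, 0.91 and 0.69 after 8 days, and 1.24, 1.54 and 1.24 after 13 days. Hba-a2, the neighbouring alpha chain gene (chr11:32197245-32197304), had -0.27, 0.03 and 0.11, then 0.67, 0.95 and 0.80, then 1.29, 1.56 and 1.34. Hbb-b2 had -0.19, 0.13 and -0.06, then 0.60, 0.89 and 0.53, then 1.45, 1.69 and 1.24. All 3 genes followed the order of Hbb-b1, with no overlap between acute, 8 days and 13 days. Beta-s (chr7:110976379-110976438) had 0.06, 0.16 and -0.09, then 0.42, 0.64 and 0.45, then 1.73, 1.60 and 0.97. Differences of repeated minus acute were 1.12 (SE 0.20) for Hba-a1, 1.14 (SE 0.22) for Hba-a2, 1.11 (SE 0.19) for Hbb-b2 and 0.93 (SE 0.16) for Beta-s, each with an adjusted p of 0.180 in limma. When the slide was a block they were 0.0035, 0.0090, 0.0010 and 0.038, and on pool averages with the pool number as a block 0.087, 0.110, 0.019 and 0.014. Near-identical sequences may let a globin probe bind its neighbour's RNA, so the 5 are not independent of each other.

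The SE of these differences includes the recovery pools, which share the estimate of the spread and varied widely, as for Hba-a1 at 0.68, 0.57 and -0.47. With the 9 pools of the comparison alone, Hba-a1, Hba-a2, Hbb-b1 and Hbb-b2 passed, as the only 4 probes higher, at adjusted p of 0.0025 to 0.021. Taken by channel, repeated minus acute within a pool number, the signal of the 5 genes in the stress channel differed by 1.03 to 1.39 on the log2 scale. In the control channel the mean differed by -0.11 to 0.15, but its SD over the 3 pool numbers was 0.15 to 0.46. For Hbb-b1 the control channel differed by -0.38, 0.39 and 0.43 in pools 1, 2 and 3. Within every set of slides the difference in the stress to control ratio was positive for each of the 5 genes, at 0.80 to 1.43. On the arrays with stress in Cy5, Beta-s overlapped between acute (up to 0.20) and repeated stress (from 0.16), and on the dye swaps it did not.

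**Figure D2:**
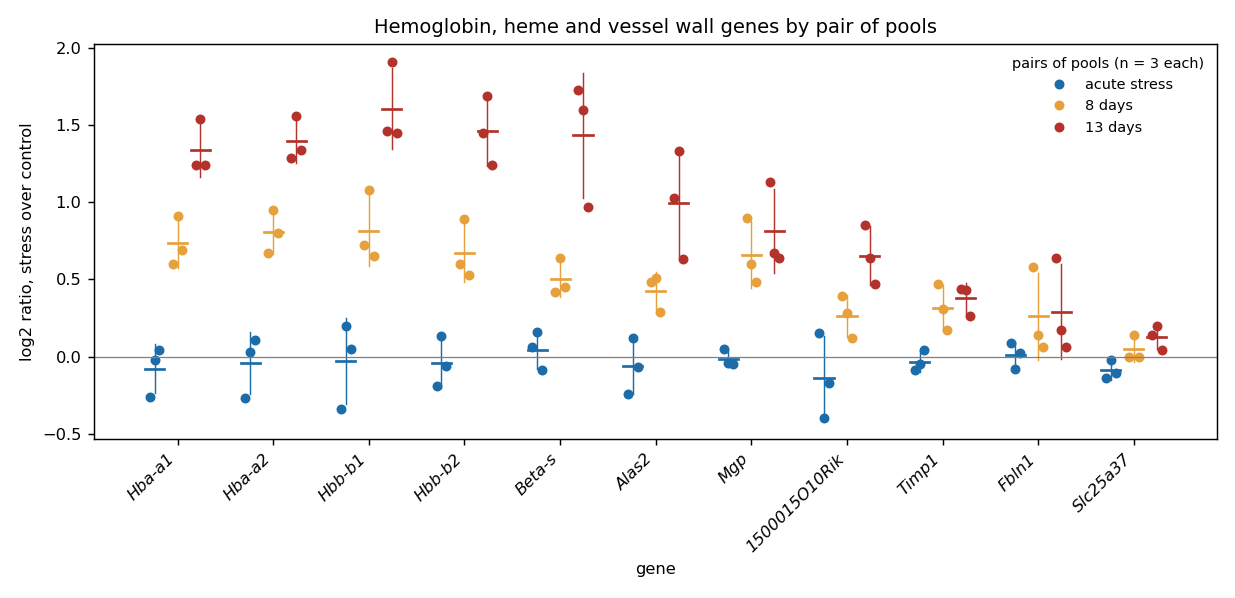
Log2 ratio of stress over control in each pool (y axis) for genes with higher ratios after repeated stress (x axis), with acute, 8 days and 13 days pools in separate colours, short bars at the mean and thin lines for the SD of 3 pools. Hemoglobin and Alas2 pools of 13 days lie above those of 8 days, while Mgp and Timp1 overlap between the 2 times.

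The enzymes that make heme did not follow as a group. Alas2, the form of the first enzyme of heme synthesis that red cell precursors use (chrX:147004993-147005052), had -0.24, 0.12 and -0.07 in the acute pools, 0.48, 0.51 and 0.29 after 8 days and 1.03, 1.33 and 0.63 after 13 days. It kept the order of the globins, with a difference of 0.77 (SE 0.14, adjusted p 0.180 in limma, 0.026 with the slide as a block). On the arrays with stress in Cy5, Alas2 overlapped between acute (up to 0.15) and repeated stress (from 0.06), and on the dye swaps it did not. The other 8 enzymes lay between -0.12 for Alas1, the form used in all tissues, and 0.07 for Alad. The list of heme synthesis enzymes thus had a median of -0.016, and 1 of 9 members was higher at an unadjusted p under 0.05, against 2.23% of all probes.

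Other transcripts of red cells differed less than hemoglobin. Of 24 red cell markers on the array, 12 were well above background. Their median difference was 0.022, with 9 of 12 positive, and 3 were higher at an unadjusted p under 0.05, against 2.23% of all probes. Slc25a37, which imports iron into mitochondria, was higher in every repeated pool than in the acute ones, with 0.18 (SE 0.061, adjusted p 0.844). Slc4a1, the anion exchanger of the red cell membrane, was chosen after its values were seen. It had -1.09, 0.13 and 0.09 in the acute pools and 0.00 to 0.54 in the repeated pools, and its difference of 0.51 (SE 0.22, adjusted p 0.982) was 0.11 without acute pool 1. The summed level of the 12 markers, as the mean log2 ratio of a pool, was -0.04 to 0.03 in the acute pools and -0.02 to 0.15 in the repeated pools. In bulk tissue, more cells of a type and more RNA per cell cannot be told apart. The part that blood left in the tissue plays in the hemoglobin values was not tested.

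The hemoglobin genes were among the probes whose 13 days and 8 days pools did not overlap. Of all tested probes, 0 passed limma's test of 13 days minus 8 days (0%, lowest adjusted p 0.124), and 513 (1.8%) had an unadjusted p under 0.05. Every 13 days pool lay above every 8 days pool for 822 probes (2.89%) and below for 914 (3.21%). For the 5 globins and Alas2 the 13 days pools were higher by 0.57 to 0.93 on the log2 scale, with no overlap and an adjusted p of 0.99998 each. These 6 genes also had no overlap between acute and 8 days. An average over both repeated times therefore lies between 2 levels for these genes.

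The 4 genes of the vessel wall and its matrix that the study names had positive differences. Of these 4 genes, 0 passed limma's adjusted test and 2 were higher at an unadjusted p under 0.05, against 2.23% of all probes. The study chose them on the same arrays, so their direction is no independent evidence. Its qPCR on single mice, some of them not on the arrays, found Mgp, Hbb-b1 and 1500015O10Rik higher than controls after 13 days of stress. Mgp, a protein that keeps vessel walls and cartilage from calcifying (chr6:136821125-136821184), had 0.05, -0.04 and -0.05 in the acute pools, 0.90, 0.60 and 0.48 after 8 days, and 1.13, 0.67 and 0.64 after 13 days. Acute pools were at the level of their controls, and 8 and 13 days overlapped. The difference was 0.75 (SE 0.12, 95% interval 0.50 to 1.00), or 1.68-fold, with an adjusted p of 0.155 in limma and of 9.0e-05 with the slide as a block, and within sets of slides it was 0.96, 0.67 and 0.61. The stress channel differed by 0.62 ± 0.17 (SD of 3 differences) and the control channel by -0.13 ± 0.10. Both dye orientations kept the 2 groups apart.

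Timp1, an inhibitor of matrix-degrading proteases, had -0.09, -0.05 and 0.04 after acute stress and 0.17 to 0.47 in the 6 repeated pools. Its pools did not overlap, though its arrays with stress in Cy5 did, with acute up to 0.07 and repeated from 0.03. The difference of 0.38 had an SE of 0.48 (adjusted p 0.99991). That SE includes recovery pool 1 at -2.93, and with the 9 pools of the comparison alone the adjusted p of Timp1 was 0.232. Fbln1, a fibulin of basement membranes, differed by 0.26 (SE 0.14, adjusted p 0.99991), with pool 1 of 8 and of 13 days at 0.58 and 0.64 and the other 4 repeated pools at 0.06 to 0.17. Vwf, the von Willebrand factor of endothelium and platelets, was at -0.12, -0.04 and -0.36 after acute stress and at 0.03 to 0.66 after repeated stress, a difference of 0.55 (SE 0.14, adjusted p 0.425). On the arrays with stress in Cy5, those of Vwf overlapped, with acute up to 0.04 and repeated from 0.03. The endothelial list as a whole was little different, with a median of 0.08 over 16 of 16 genes. Of these, 1 was higher at an unadjusted p under 0.05, against 2.23% of all probes. Itm2a had the lowest p of that list, at 0.22 (SE 0.073, adjusted p 0.815). Pericyte and smooth muscle markers had a median of 0.10, with 3 of 14 higher at an unadjusted p under 0.05, against 2.23% of all probes.

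Markers of meningeal fibroblasts had a positive difference in 20 of 20 genes, of which 12 were at an unadjusted p under 0.05, against 2.23% of all probes. In limma 0 passed the adjusted test. With the slide as a block 5 were higher at an adjusted p under 0.05, against 0.133% of all probes. Repeated pools lay above acute pools without overlap for 7, against 1.31% of all probes. The median difference was 0.23, and the median ratio was -0.17 after acute stress, 0.09 after 8 days and 0.03 after 13 days. The list was thus below its controls after acute stress and near them after repeated stress. Pool means of the list were -0.23 to -0.16 after acute stress, -0.03 to 0.30 after 8 days and -0.01 to 0.19 after 13 days. Without any 1 pool the median was 0.19 to 0.28.

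Ogn, the small matrix proteoglycan osteoglycin, had -0.13, -0.23 and -0.29 in the acute pools and -0.06 to 0.27 in the repeated pools, a difference of 0.38 (SE 0.060, adjusted p 0.158 in limma, 0.0035 with the slide as a block). Pcolce, an enhancer of procollagen processing, went from -0.07, -0.20 and -0.26 to 0.16 to 0.43, a difference of 0.42 (SE 0.074, adjusted p 0.180 and 0.0048). Col3a1, a fibrillar collagen chosen after its values were seen, differed by 0.44 (SE 0.082, adjusted p 0.180). Each of these had 3 acute pools below 0 and no overlap with the repeated ones. On the dye swaps alone, the arrays of Ogn overlapped, with acute up to -0.10 and repeated from -0.19. Col1a2, a chain of type I collagen, had -0.82, -0.27 and -0.49 after acute stress and -0.05 to 0.40 after repeated stress, a difference of 0.66 (SE 0.13, adjusted p 0.180 and 0.039). Within sets of slides the difference of Col1a2 was 1.16, 0.23 and 0.58, and without acute pool 1 it was 0.51. Col1a1, the other chain, depended on acute pool 1 at -2.06, against -0.23 and -0.10 in the other 2, and its difference of 1.06 (SE 0.32, adjusted p 0.642) was 0.43 without that pool. The control channel differed by -0.37 ± 0.48 for Col1a2 and by -0.53 ± 1.08 for Col1a1, an SD larger than the mean. How much of the meninges stayed on each slice was not measured, and its part in these values was not tested.

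**Figure D3:**
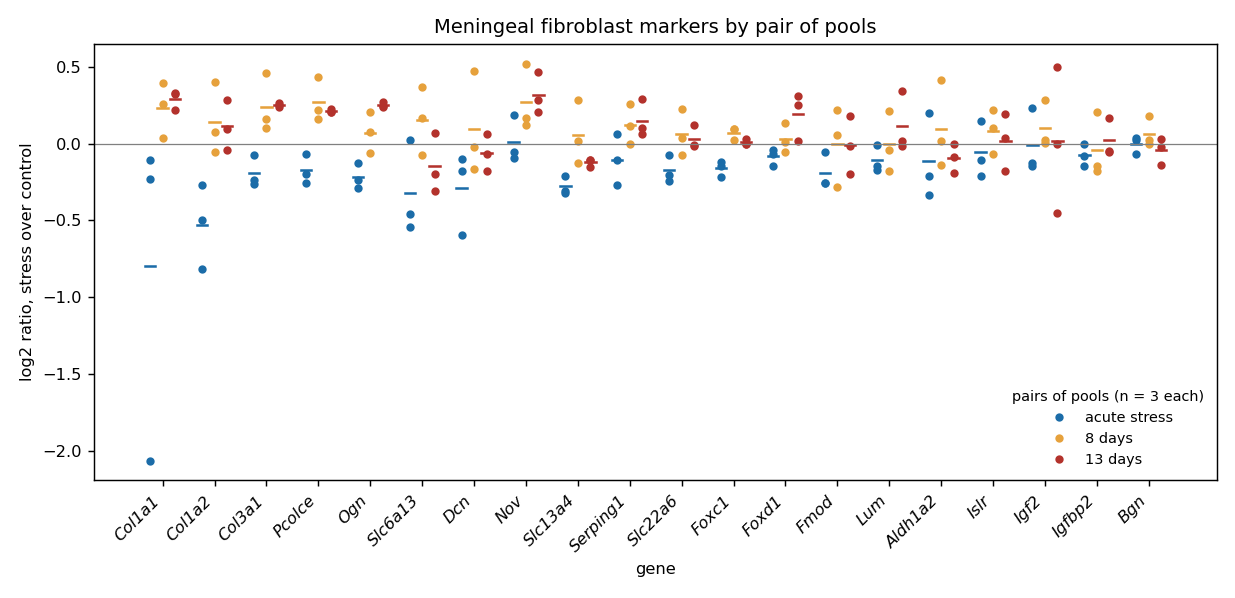
Log2 ratio of stress over control (y axis) in each pool for markers of meningeal fibroblasts (x axis), with acute, 8 days and 13 days pools in separate colours and short bars at the mean. Acute pools mostly lie below 0 and repeated pools around or above it, and Col1a1 has 1 acute pool at -2.06.

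1500015O10Rik, which encodes the secreted peptide augurin and is abundant in choroid plexus (chr1:43799321-43799380), had 0.15, -0.40 and -0.17 after acute stress, 0.39, 0.28 and 0.12 after 8 days, and 0.85, 0.64 and 0.47 after 13 days. The lowest repeated pool was just below the highest acute pool. The difference was 0.60 (SE 0.12, adjusted p 0.202 in limma, 0.0036 with the slide as a block). Of the 11 choroid plexus genes measured, of 15 on the array, the median difference was 0.04. Among them 2 were higher at an unadjusted p under 0.05, against 2.23% of all probes. The other was Kl at 0.15 (SE 0.059, adjusted p 0.927), with 1 channel of 1 array not well above background.

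Myelin and oligodendrocyte genes had higher ratios after acute stress than after repeated stress. Mobp, one of the 2 that passed (chr9:120085150-120085209), had 0.61, 0.41 and 0.47 in the acute pools, 0.12, 0.18 and 0.02 after 8 days, and -0.16, -0.31 and -0.16 after 13 days. The 3 times did not overlap, and the ratio went from above its controls to below them. The difference was -0.55 (SE 0.064, 95% interval -0.69 to -0.41), or 1.46-fold lower, at an adjusted p of 0.028 in limma and also with the slide as a block, and within sets of slides it was -0.63, -0.47 and -0.54. The stress channel differed by -0.58 ± 0.10 and the control channel by -0.03 ± 0.07. On arrays with stress in Cy5 the groups did not overlap, at 0.59 to 0.86 against -0.16 to 0.21. On the dye swaps they did, at 0.07 to 0.22 against -0.69 to 0.16.

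The other 2 Mobp probes differed less. The one whose sequence is printed had 0.43, 0.27 and 0.28 after acute stress and -0.03 to 0.16 after repeated stress, a difference of -0.27 (SE 0.059, adjusted p 0.226), with no overlap. The other, often not well above background, differed by -0.05 (SE 0.066, adjusted p 0.99991). The calls of Mobp and of the immunoglobulin transcript were both lost without any 1 of the acute pools, at adjusted p of 0.056 to 0.17. Both were also lost without pool 1 or 3 of 8 days or pool 1 or 2 of 13 days, and that of the immunoglobulin transcript without pool 3 of 13 days too.

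Of the 16 oligodendrocyte and myelin genes, 15 had a negative difference, and 8 were lower at an unadjusted p under 0.05, against 2.68% of all probes. In 3 the pools did not overlap, against 1.6% of all probes. The list's median difference was -0.16, and its median ratio after acute stress was 0.19. Pool means were 0.18 to 0.24 after acute stress and -0.05 to 0.11 after repeated stress, with no overlap. Trf, the iron carrier transferrin that oligodendrocytes make in brain, had 0.44, 0.37 and 0.41 in the acute pools and -0.11 to 0.15 in the repeated pools, a difference of -0.38 (SE 0.068, adjusted p 0.180 in limma, 0.011 with the slide as a block). Bcas1, a marker of oligodendrocytes that form myelin, differed by -0.41 (SE 0.080, adjusted p 0.180), and Fa2h, which hydroxylates the fatty acids of myelin lipids, by -0.34 (SE 0.068, adjusted p 0.180). Bcas1 and Fa2h are not on the list, and all 3 genes had every acute pool above every repeated pool. Mag, a structural myelin gene chosen after its values were seen, differed by -0.36 (SE 0.083, adjusted p 0.299), and its groups overlapped.

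**Figure D4:**
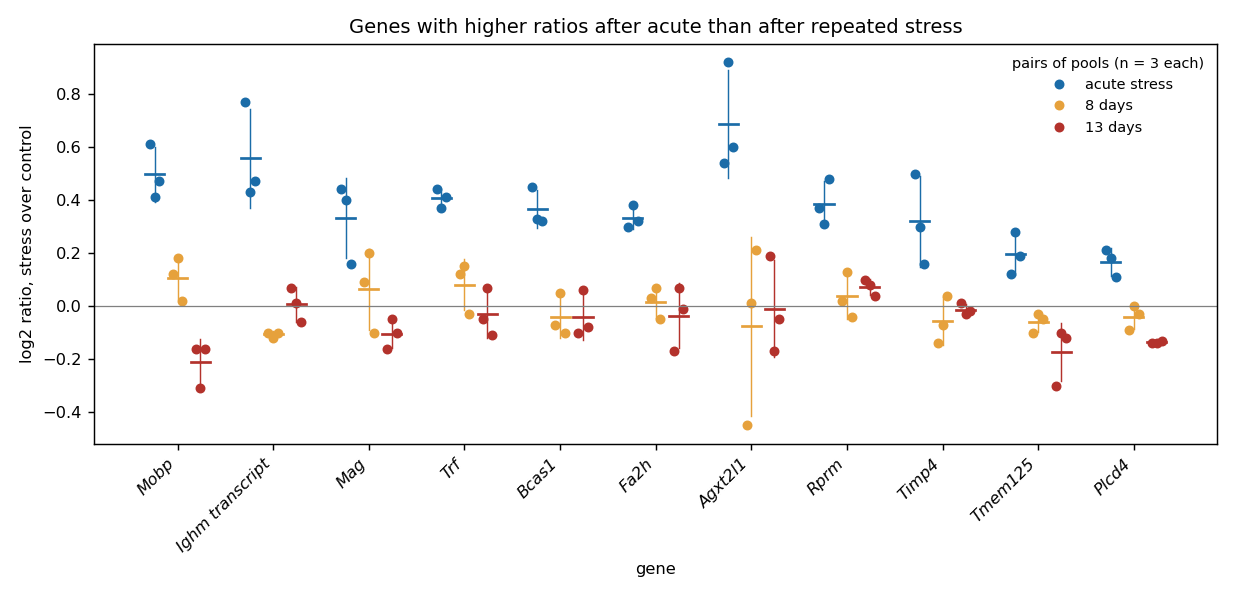
Log2 ratio of stress over control (y axis) in each pool for genes with higher ratios after acute stress (x axis), with acute, 8 days and 13 days pools in separate colours, short bars at the mean and thin lines for the SD of 3 pools. The acute pools of Mobp lie at 0.41 to 0.61 and those of the immunoglobulin transcript at 0.43 to 0.77, above all repeated pools.

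The immunoglobulin heavy constant mu transcript (ENSMUST00000103426 in the array tables), part of the antigen receptor of B cells, had 0.77, 0.43 and 0.47 after acute stress, -0.10, -0.12 and -0.10 after 8 days, and 0.07, 0.01 and -0.06 after 13 days. Acute pools were all above their controls, while repeated pools were within 0.12 of them. The difference was -0.61 (SE 0.074, 95% interval -0.77 to -0.45), or 1.52-fold lower, with an adjusted p of 0.028 in limma and of 0.0035 with the slide as a block. Within sets of slides it was -0.78, -0.48 and -0.55. The stress channel differed by -0.51 ± 0.15 and the control channel by 0.09 ± 0.04. Both dye orientations kept the groups apart.

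Astrocyte markers had a median difference of -0.15, with 12 of 16 negative, 5 lower at an unadjusted p under 0.05, against 2.68% of all probes, and 3 with no overlap, against 1.6%. Agxt2l1, an enzyme of phosphoethanolamine breakdown that RefSeq calls Etnppl (chr3:130338517-130338576), had 0.54, 0.92 and 0.60 after acute stress, -0.45, 0.01 and 0.21 after 8 days, and 0.19, -0.17 and -0.05 after 13 days. Its acute pools stood above all others, and its repeated pools were spread on both sides of 0. The difference was -0.73 (SE 0.14, adjusted p 0.180 in limma, 0.014 with the slide as a block, 0.131 on pool averages with the pool number as a block), the largest negative one among named genes. Mlc1, a membrane protein of astrocyte endfeet, was the least spread, at 0.01 to 0.04 after acute stress and -0.20 to -0.15 after repeated stress, a difference of -0.19 (SE 0.045, adjusted p 0.295). Fabp7, a fatty acid binding protein of astrocytes and their precursors that was chosen after its values were seen, went the other way, from -0.23, -0.53 and -0.68 to -0.14 to 0.35. It is not on the list, and its difference of 0.49 (SE 0.11) had an adjusted p of 0.303 in limma and of 0.0047 with the slide as a block.

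Other genes with no overlap were lower after repeated stress by smaller amounts. Rprm, a mediator of cell cycle arrest, had 0.37, 0.31 and 0.48 after acute stress and -0.04 to 0.13 after repeated stress, a difference of -0.33 (SE 0.062). Timp4, a further inhibitor of matrix proteases, differed by -0.35 (SE 0.066), opposite in sign to Timp1. Tmem125, a membrane protein, differed by -0.31 (SE 0.058) and Plcd4, a phospholipase C, by -0.26 (SE 0.046). Eci2, an enzyme of fatty acid oxidation, had acute pools close together, at 0.12, 0.13 and 0.14, against -0.13 to -0.04, a difference of -0.22 (SE 0.041). Gm16442, 1700057H15Rik and Myo1h, an unconventional myosin, differed by -0.30, -0.29 and -0.29, and their 13 days pools all lay below their 8 days pools. On the dye swaps alone, the acute and repeated arrays of Gm16442, 1700057H15Rik and Myo1h overlapped. On the arrays with stress in Cy5, those of Myo1h and Timp4 overlapped. The adjusted p of these 8 genes was 0.180 each in limma. When the slide was a block, those of Rprm, Tmem125 and Plcd4 were 0.024, 0.0036 and 0.020, and the other 5 were above 0.05.

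Among the genes that the study names for acute stress, Fam107a, a stress-responsive actin-binding protein, had 2 tested probes that disagreed. The brighter one overlapped, at 0.19, -0.06 and 0.01 after acute stress, with a difference of -0.07 (SE 0.097, adjusted p 0.99991). The other Fam107a probe had 0.61, 0.53 and 0.36 after acute stress and 0.03 to 0.39 after repeated stress, a difference of -0.31 (SE 0.103, unadjusted p 0.0107 and adjusted p 0.818 in limma), with an overlap of 1 acute pool. Abpa was not well above background on any of the 15 arrays, and no difference is given for it. The study chose these genes on the same arrays, so their direction here is no independent evidence. Its qPCR on single mice, some of them not on the arrays, found Agxt2l1 and Fam107a higher than controls after acute stress.

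Among the genes that the study names for repeated stress, Lrrc49 differed by 0.16 (SE 0.10), Aldh1a3, which makes retinoic acid, by -0.12 (SE 0.10), and Cntfr, a cytokine receptor chain, by -0.0012 (SE 0.053). Myh1, a myosin heavy chain of fast muscle, differed by 0.29 (SE 0.11, adjusted p 0.917). The repeat-related transcripts on the array had a median ratio of -0.54 after acute stress, -0.12 after 8 days and -0.80 after 13 days. Their pool means after 8 days ranged from -0.41 to 0.06. Their median difference was 0.09 over 4 transcripts. For ENSMUST00000099050 the acute pools were at -0.37, -0.84 and -0.58 and the repeated pools at -1.47 to 0.00.

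The stress response lists held 0 genes that passed limma's adjusted test. Of 23 genes induced by glucocorticoids, which the adrenal releases under stress, 0 were higher and 3 were lower at an unadjusted p under 0.05, against 2.68% of all probes lower, with a list median of -0.07. Plin4, a lipid droplet protein, differed by -0.26 (SE 0.078, adjusted p 0.665), and Klf9, a transcription factor, by -0.25 (SE 0.075, adjusted p 0.673), with acute pools at -0.02 to 0.21 and repeated pools at -0.23 to -0.03 for Klf9. Of 23 immediate early genes, which neurons switch on within minutes of activity, 0 were at an unadjusted p under 0.05, and the median was 0.09. Tissue was taken a day after the last encounter. Egr2 differed by 0.41 (SE 0.21, adjusted p 0.99991), and by -0.0024 without acute pool 1. Heat shock proteins had a median of -0.019, with 0 of 14 at an unadjusted p under 0.05. Clock genes had a median of -0.006, and Hlf, which binds promoters in a daily rhythm, differed by -0.18 (SE 0.068, adjusted p 0.909).

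Genes of the amino acid response had a median of -0.014 with opposite members. Slc38a2, a neutral amino acid transporter, had -0.05, 0.01 and -0.10 in the acute pools, 0.05 to 0.25 after 8 days and 0.33 to 0.40 after 13 days, a difference of 0.30 (SE 0.061, adjusted p 0.189). Slc7a5, an exchanger of large neutral amino acids, had 0.12 to 0.20 in the acute pools and -0.25 to 0.15 in the repeated pools, a difference of -0.25 (SE 0.062, adjusted p 0.353). Hypoxia-induced genes had a median of 0.014 over 13 of 16, and Adm, the vessel-dilating peptide adrenomedullin, differed by 0.17 (SE 0.046, adjusted p 0.453), with 13 days above 8 days.

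Of the immune lists, type I interferon genes had a median of 0.14 over 21 of 22, with 0 at an unadjusted p under 0.05. Their pool means ranged from -0.25 to 0.02 after acute stress and from -0.36 to 0.56 after repeated stress, more than between the groups. Neutrophil and monocyte markers had a median of 0.45 over 11 of 15, and all 11 were positive, yet 0 were at an unadjusted p under 0.05. Their pool means were -1.59 to 0.13 after acute stress, and without acute pool 1 the median was -0.019. Microglia had a median of 0.011 with 0 of 16 at an unadjusted p under 0.05. Platelet markers had 0.04 with 2 of 9 higher, and perivascular macrophages 0.09 with 2 of 7 higher, against 2.23% of all probes. Pf4 counts in both of these lists. It had -0.81 in acute pool 1, and its difference of 0.40 (SE 0.14, adjusted p 0.854) was 0.15 without that pool. Ppbp, a platelet chemokine, was well above background in few channels and had -0.71 in acute pool 1, and its difference of 0.37 (SE 0.14, adjusted p 0.919) was 0.13 without that pool.

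Neuron markers had a median of -0.07 with 1 of 14 lower at an unadjusted p under 0.05, against 2.68% of all probes. The lower gene was Nefm, a neurofilament chain, at -0.29 (SE 0.13, adjusted p 0.996). Olfactory bulb markers had a median of -0.04 with 0 of 11 at an unadjusted p under 0.05, though their pool means ranged from -0.27 to 0.27 after acute stress. Doc2g, an olfactory bulb gene, was at 0.36, 0.56 and -0.48 there.

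**Figure D5:**
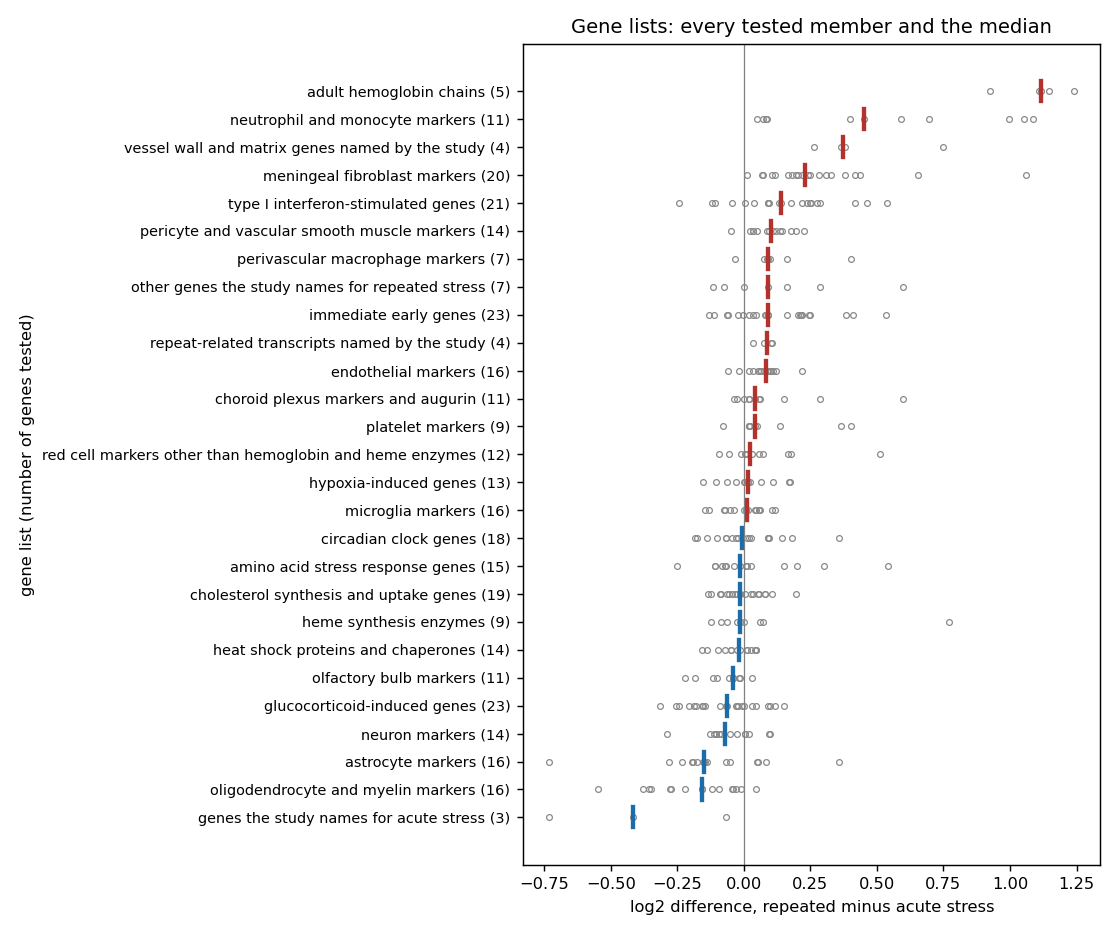
Repeated minus acute difference on the log2 scale (x axis) for the measured members of each gene list (y axis), 1 point per gene, with the list's median. Hemoglobin chains lie at 0.93 to 1.24, meningeal fibroblast markers are all positive, and 15 of 16 oligodendrocyte genes are negative.

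A change of sign between the 2 conditions was found for few probes. The acute pools were all below 0 and the repeated pools all above 0 for 77 probes (0.27%), and the reverse held for 91 (0.32%). Cpne4, a calcium-dependent membrane-binding protein chosen after its values were seen, had -0.28, -0.29 and -0.28 after acute stress, but 1 of its 6 repeated pools was also below 0, at -0.06, and the others were at 0.14 to 0.28. Its difference was 0.45 (SE 0.070, adjusted p 0.155). Mlc1, Eci2 and Plcd4 stood at or below 0 in every repeated pool and above 0 in every acute pool.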

How the data were processed

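RNA pools were labelled with Cy3 or Cy5 and hybridised to Agilent 4x44K v2 mouse arrays. The deposited scanner tables hold spot intensity values and local backgrounds that the authors read with Agilent Feature Extraction, without normalization, and a log10 ratio of red over green that this software corrected and dye-normalized. The deposited value table holds the authors' log2 ratio of stress over control, made with normexp, whose offset is not given in the sources used here. It correlated with an offset of 0 at r of 0.913 to 0.9999 over 20 arrays. Marks of 0 or 1 gave control spots, outliers and spots well above background.

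In R 4.3.3, limma 3.58.1 took mean intensities through normexp with an offset of 50, loess (weight 0 for control and outlier spots) and Aquantile. These 3 steps follow the study's methods, and the offset and weights were chosen here. Turned dye swaps were averaged with the original array of their pool, which left 12 pools. Each time point had 1 coefficient in limma's fit (8 residual degrees of freedom). Benjamini-Hochberg adjustment ran over the 28481 probes well above background in at least 1 channel on at least 8 of 15 arrays. Calls needed an adjusted p under 0.05 together with a difference over 0.5 in size, the study's thresholds. P-values of fits on pool averages measure the spread between pools, and an SE is that of the shared fit. A fit that blocks on the slide took all 20 arrays, the pool being a random block (statmod 1.5.0). Its correlation within a pool was -0.0048, so the 2 arrays of a pool counted as nearly independent. The p-values with the slide as a block therefore do not measure the spread between pools alone. Values by channel are log2 signals compared within a pool number, as means ± SD over 3 differences, chosen after the data had been seen and not tested. The number of arrays limits the precision. Scripts were tested on simulated data.

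A list took the brightest probe of each gene. Named were called probes, up to 12 per direction with the lowest p and no overlap (above 0.5 in size where at least 6 were), up to 4 members of each list, and genes the study names. Some genes are not reported here. Members, lists and rule were chosen with earlier results of these data known. Of 39429 probes, 28829 carry a RefSeq accession and 27427 of these were matched. Probe positions are those of the tables, for mm9.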

Additional observations from a re-analysis of the deposited data

Results flagged for a closer look

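The effect of stress against control differed between repeated and acute stress by limma's test of that difference for 2 transcripts. The log2 ratio of Mobp differed by -0.55 and that of immunoglobulin heavy constant mu (ENSMUST00000103426) by -0.61, each with an adjusted p of 0.028. Over 24 alternatives the sign of both was the same, at -0.62 to -0.49 for Mobp and -1.02 to -0.50 for the immunoglobulin transcript, and they were called in 10 and 11 of the 24. What caused the differences was not tested.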

How the results depend on the processing

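The counts rest on few probes near the threshold. Instead of 0 higher and 2 lower probes, there were 4 and 2 with the 9 pools without recovery, 10 and 3 with the slide as a block, 8 and 3 with a dye term, 1 and 1 with pools 2 and 3 only (Mgp was the higher one), and 0 and 1 with 8 and 13 days as 1 group. With a normexp offset of 0, with the Feature Extraction log ratio, with median centring, with the series value table and with a trended robust variance, 0 were higher and 0 lower, and the cause was not tested. Leaving out any 1 pool gave 0 to 1 higher and 0 to 2 lower probes. The higher one was Cpne4 without 8 days pool 3 and Beta-s without 13 days pool 3. The 3 other filters, no Aquantile and the adjusted p alone gave 0 and 2. Between 13 and 8 days, 0 probes were called in each alternative.

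The main fit did not take pool numbers as pairs, since the sample labels name no pairing across time points. In the data, 12 of 18 same-numbered pairs of pools had r over 0.1, with a range of -0.167 to 0.534 over the 18. Their median r was 0.28, against -0.09 for other pairs across time points, and 9 of 12 pools correlated best with their own number. This is a hint that same-numbered pools vary together, which the main fit leaves in its spread. Each slide held 1 pool number, so number and slide set cannot be told apart. With the replicate number as a block 6 probes were higher and 2 lower.

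Signs changed for few genes and lists. With pools 2 and 3 only, Egr2 was at -0.017 and Ltf at -0.0035. Without acute pool 1, Egr2 was at -0.0024, Fam107a at 0.0038, Ltf at -0.025 and the neuron median at 0.0091. With median centring, Itm2a was at -0.031 and the endothelial median at -0.0064. Over all pools left out in turn, the range was -0.0024 to 0.63 for Egr2, -0.14 to 0.0038 for Fam107a, -0.025 to 1.07 for Ltf and -0.093 to 0.0091 for the neuron median. Signal over background limits Ppbp, Ltf, Slc16a10 and Mndal, which were not well above background in many channels.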
